A study of Mus musculus with 54 samples.

Results

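The combined knockdown of 4 transcription factors in M2-like mouse macrophages was compared with a negative siRNA pool. The comparison rests on 6 of the 54 libraries of the series, chosen by their labels: 3 libraries given the pools for E2f1, Myc, Pparg and Stat6 in 1 transfection (named iM1 here) and 3 that received the negative pool (neg_siPool). Both groups were thioglycolate-elicited peritoneal macrophages of C57BL/6 mice, without genetic change, exposed to IL-4 at 10 ng/ml over 24 h, transfected with DharmaFECT 4, cultured on without IL-4 and harvested 48 h after transfection. Further groups of the same 36-library experiment served as background, each with 3 libraries: M2-like macrophages with a pool against 1 factor only (siMyc, siPparg, siE2f1, siStat6), M2-like macrophages with transfection reagent alone (M2_mock), and macrophages polarized for 24 h with LPS and IFN-γ and given reagent alone (M1_mock). Untransfected M1-like and M2-like macrophages, also with 3 libraries each, served as a second reference for polarization. They received no reagent. The paper places the sequencing of untransfected macrophages 24 h after polarization, so their time of harvest may differ as well. The Myc pool came from another maker than the other 3 pools. The maker of the negative pool and the amount of each siRNA in the combined pool are not given in the sources used here, so the combination, the dose per target and the maker cannot be told apart in this design. The cells were adherent peritoneal exudate cells and were not sorted.

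Macrophages take up different states depending on the signals they receive. IL-4 acts through the phosphorylation of Stat6, which induces genes of alternative activation, and Pparg is a nuclear receptor that works with Stat6 and sets the uptake and oxidation of lipids. Myc is a transcription factor of growth and metabolism whose mRNA is raised by IL-4, and E2f1 drives genes of DNA replication. LPS and interferon induce the opposite state through NF-kB and interferon regulatory factors, with cytokines, chemokines, nitric oxide and itaconate among its products.

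The 6 libraries held 15181112 to 17342594 counted reads (iM1) and 15505223 to 18150125 (neg_siPool). The 10 genes with most reads took 11.4% to 12.4% of the reads in iM1 and 14.5% to 15.1% with the negative pool, and mitochondrial genes took 0.97% to 1.2% and 1.08% to 1.1%. No pair of libraries held identical counts. The labels do not say whether the replicates are separate mice or cultures. The study's methods name biological replicates of iM1 for its RNA extraction before quantitative PCR, without saying so of the sequenced libraries or of the negative pool, so all p-values measure only the spread between these libraries, which may be technical. Levels are given as CPM (read counts scaled to library size with TMM factors), and differences as log2 fold changes with their standard error (SE) from edgeR's quasi-likelihood test. A gene was called at a Benjamini-Hochberg adjusted p under 0.05 over all 14172 genes tested. CPM values are not divided by gene length, so levels are compared between groups and not between genes.

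The label was checked first on the targets of the pools. Pparg (chr6:115360951-115490399, GRCm38) stood at 39.0, 38.1 and 33.5 CPM in iM1 and at 122.6, 138 and 129.6 CPM with the negative pool, a log2 fold change of -1.82 (SE 0.08, edgeR adjusted p 2.52e-16). Myc (chr15:61985391-61990374) stood at 8.58, 8.04 and 7.30 CPM against 19.6, 22.3 and 18.5, with a log2 fold change of -1.34 (SE 0.16, edgeR adjusted p 1.62e-07). The 3 iM1 libraries lay below the 3 control libraries for both genes. Stat6 (chr10:127642986-127660957) was at 165, 168 and 142 CPM in iM1 and at 286, 298 and 297 CPM in the controls, with a log2 fold change of -0.89 (SE 0.09, edgeR adjusted p 1.17e-08). E2f1 (chr2:154559407-154569892) was at 11.9, 11.9 and 12.6 CPM against 20.9, 17.3 and 21.96, with a log2 fold change of -0.73 (SE 0.11, edgeR adjusted p 7.94e-06). The groups did not overlap for these genes either, and the mRNA of all 4 targets was thus lower in the libraries labelled with the combined pool.

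The depth of the knockdown differed between the targets and from that of the single pools. In per cent of the neg_siPool mean, Pparg remained at 28.3 ± 2.25 (SD, n = 3) in iM1 and at 21.9 ± 2.57 with its own pool, Stat6 at 53.9 ± 4.82 and 27.3 ± 5.79, and E2f1 at 60.4 ± 2.01 and 25.2 ± 4.05. For E2f1 the control itself was below M2_mock (log2 -0.42, edgeR adjusted p 0.00715), which stood at 133.6 ± 6.58. Against M2_mock, E2f1 in iM1 changed by -1.14 on the log2 scale. The other targets were not called between the negative pool and M2_mock. Tested directly, iM1 held more of the target than the single pool for E2f1 (log2 difference 1.25, edgeR adjusted p 1.32e-08), Stat6 (0.98, edgeR adjusted p 3.81e-09) and Pparg (0.37, edgeR adjusted p 0.00345). Myc remained at 39.6% ± 3.196 in iM1 and at 38.0% ± 8.01 with its own pool, and the 95% interval of the log2 difference ran from -0.30 to 0.39. Pparg mRNA was below the control mean with the other single pools as well, at 65.2% with siMyc, 79.6% with siE2f1 and 78.4% with siStat6.

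**Figure D1:**
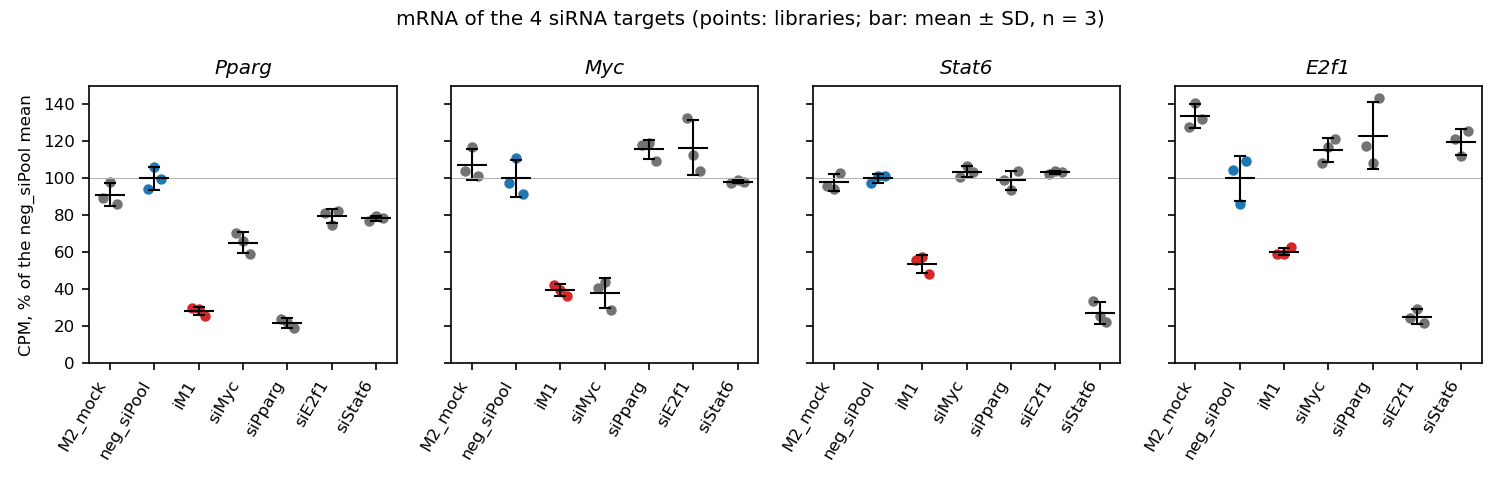
mRNA of Pparg, Myc, Stat6 and E2f1 in each library, as CPM in per cent of the neg_siPool mean (y axis) by group (x axis). Points are libraries and the bars give the mean ± SD of 3. E2f1 and Stat6 sat at 60.4% and 53.9% in iM1 and at 25.2% and 27.3% with their own single pools, while Myc sat at 39.6% and 38.0%.

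Across all genes, 1778 were higher and 1972 lower in iM1 than with the negative pool, 12.5% and 13.9% of the 14172 tested and 26.5% together. Most changes were small: 225 of the increases and 278 of the decreases reached 2-fold, and 59 and 33 reached 4-fold, with a median absolute log2 fold change of 0.42 among the increases and 0.46 among the decreases. The 3 iM1 libraries lay apart from the 3 controls for 1728 of the genes called higher and 1918 of those called lower, where 22.1% of all genes tested lay apart upward and 22.1% downward. The median log2 fold change of all genes tested was 0.01.

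**Figure D2:**
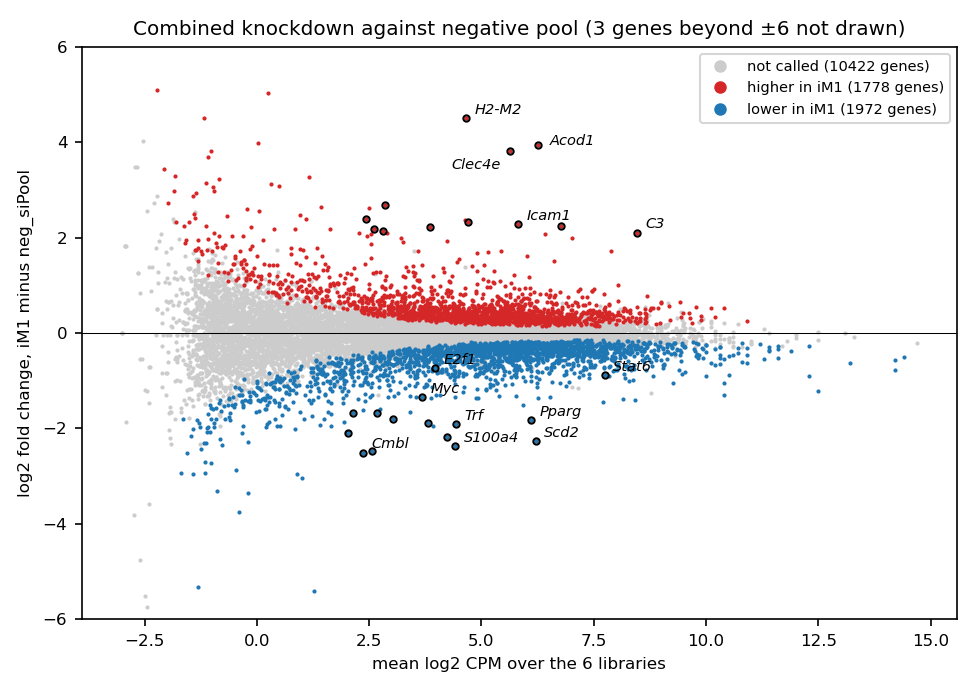
Log2 fold change of iM1 against neg_siPool (y axis) by mean log2 CPM over the 6 libraries (x axis), with 1 point per gene tested. Red points are the 1778 genes called higher, blue points the 1972 called lower, grey points the rest, and 3 genes beyond the axis are not drawn.

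Among called genes whose mean log2 CPM reached 2 and whose groups were separated, the 12 largest changes each way were read first, and H2-M2, Acod1 and Clec4e led the increases. The separation of these genes was thus fixed by the selection, here and where they recur in the lists below. Acod1, which makes itaconate from a citrate cycle intermediate, stood at 288, 220.2 and 403 CPM in iM1 and at 18.0, 17.3 and 23.965 CPM with the negative pool, 15.3-fold higher (log2 3.94, SE 0.37, edgeR adjusted p 1.71e-09). Clec4e, which codes for the Mincle receptor for microbial glycolipids, stood at 162, 170.0 and 233 CPM against 10.8, 14.1 and 14.9 (log2 3.83, SE 0.28, edgeR adjusted p 1.72e-11). H2-M2, a non-classical class I gene of the MHC on chromosome 17, stood at 99.3, 88.0 and 188 CPM against 4.81, 4.002 and 7.55 (log2 4.50, SE 0.36, edgeR adjusted p 5.46e-11). In each of these genes the lowest iM1 library was several times above the highest control library, and iM1 replicate 3 was the highest.

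The complement genes C3 and Cfb and the acute phase gene Hp were also among the 12 largest increases. C3, the central complement component, went from 119, 225 and 177 CPM to 648, 776 and 816 (log2 2.11, SE 0.31). Cfb, factor B of the alternative pathway, went from 2.17, 3.74 and 2.63 CPM to 14.4, 17.7 and 22.6 (log2 2.69, SE 0.42). The edgeR adjusted p-values were 6.20e-06 for C3 and 1.09e-05 for Cfb. Hp, which codes for the haemoglobin-binding protein haptoglobin, was at 7.56, 24.4 and 16.0 CPM against 1.56, 5.14 and 4.35 (log2 2.13, SE 0.63, edgeR adjusted p 0.0112). Its call was lost without iM1 replicate 2 (log2 1.69) and without neg_siPool replicate 1 (log2 1.76). The remaining genes among the 12 largest increases were Mcemp1 (log2 2.39), Ifit1bl1 (2.33), Icam1 (2.29), H2-Q6 (2.25), Nfkbie (2.23) and Inhba (2.18), the last of which codes for a subunit of activin A and rose from 2.35, 2.93 and 3.09 CPM to 13.9, 11.4 and 12.8. M2_mock lay below the negative pool for Cfb (0.192, 0.421 and 0.139 CPM), Ifit1bl1 (0.384, 1.26 and 0.906) and H2-Q6 (5.25, 7.15 and 2.65). The same held for Icam1 and Inhba, while M2_mock overlapped the negative pool for C3, Hp and Nfkbie.

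The 12 largest decreases held Pparg itself. Cmbl, which codes for a hydrolase of xenobiotics, fell to 2.54, 1.79 and 2.01 CPM from 11.1, 14.3 and 10.6 (log2 -2.51, SE 0.23, edgeR adjusted p 9.77e-10). Ramp1, a subunit of the receptor for the neuropeptide CGRP, was at 3.05, 2.44 and 1.82 CPM against 13.4, 13.4 and 14.1 (log2 -2.48, SE 0.25, edgeR adjusted p 4.86e-09). S100a4, a calcium-binding protein of motile cells, was at 11.2, 7.23 and 10.035 CPM against 48.2, 45.2 and 52.1 (log2 -2.36, SE 0.25, edgeR adjusted p 2.22e-08). All iM1 libraries lay far below the controls in these genes. Trf, which codes for the iron carrier transferrin, fell from 38.6, 40.6 and 47.6 CPM to 9.22, 13.7 and 10.5 (log2 -1.92, SE 0.15). Further decreases were those of the glycosyltransferases B3gnt7 (log2 -2.10) and Mfng (-1.68), of the adenylate cyclase Adcy3 (-1.68), of the lectin gene Clec10a (-1.79), and of the desaturase genes Scd2 and Scd1.

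**Figure D3:**
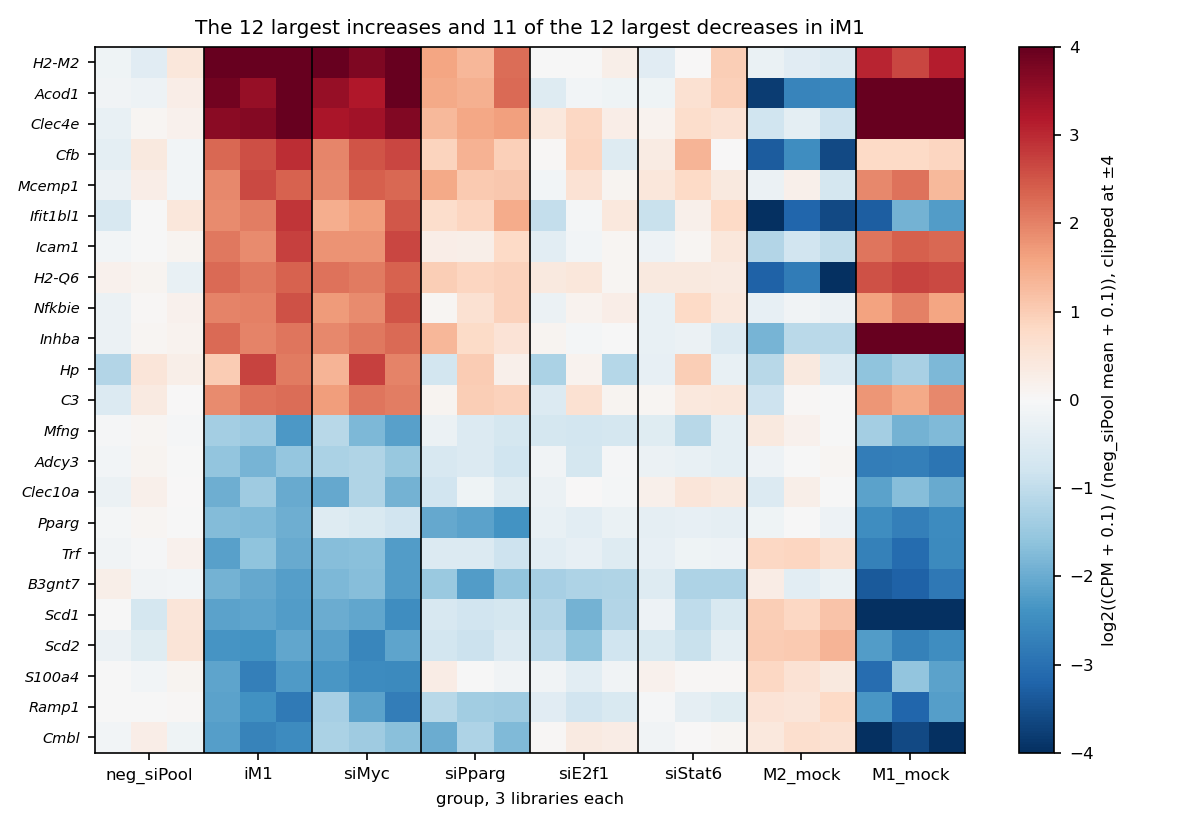
Level of the 12 largest increases and 11 of the 12 largest decreases (rows) in each of the 3 libraries of 8 groups (columns), as log2 of CPM + 0.1 over the neg_siPool mean + 0.1, clipped at 4 log2 units either way. The iM1 and siMyc columns look alike in nearly every row, Pparg being darker in iM1, and the siE2f1 and siStat6 columns stay close to the negative pool in most rows.

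Genes were then read by 26 lists of pathways and functions. Members named beyond the 4 of largest change in a list were chosen after their values were seen. Each list is described by its counts, and some also by their median, beside those of all genes tested. Of all genes, 12.5% were called higher and 13.9% lower. Among the genes of NF-kB, the transcription factor family that LPS activates, 19 of the 24 tested (of 25) were higher in iM1 and 0 lower, with a median log2 fold change of 0.66. DESeq2 also called 0 of them lower. The inhibitors that NF-kB induces for its own control were among the genes of largest change: Nfkbia went from 20.9, 18.9 and 20.1 CPM to 54.3, 53.4 and 86.3 (log2 1.69, edgeR adjusted p 3.18e-07), and Nfkbie from 5.66, 6.80 and 7.49 CPM to 26.6, 27.3 and 39.8 (log2 2.23, edgeR adjusted p 3.59e-08). The subunit Relb went from 15.8, 17.2 and 16.8 CPM to 52.9, 48.8 and 58.8 (log2 1.69). The groups were separated for Nfkbia and Relb, whereas separation was a condition for Nfkbie as a member of the largest increases. Nfkb2 (log2 0.94), Nfkb1 (0.42) and the deubiquitinase gene Tnfaip3 (0.62) were called with smaller changes, and the adhesion receptor Icam1 reached 112, 95.03 and 171 CPM from 23.9, 25.5 and 27.8.

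The genes that NF-kB and interferon signals are known to induce rose in part. Of 15 inflammatory cytokine genes tested (of 19), 5 were higher and 0 lower, and the list lost 2 of these calls without neg_siPool replicate 3 and gained 3 with a replicate block. DESeq2 called 0 of them lower. The median log2 fold change was 0.53. With the negative pool against M2_mock, 5 of the 15 were higher and 0 lower, with a median of 1.02. That comparison shares the neg_siPool libraries and called 6.67% of all genes higher and 5.03% lower. Tnf was at 37.3, 30.2 and 43.9 CPM in iM1 and at 15.2, 11.8 and 12.6 CPM in the controls (log2 1.49, SE 0.19, edgeR adjusted p 4.13e-07), and Il1rn, the antagonist of the IL-1 receptor, at 235, 207 and 313 CPM against 126, 137 and 132 (log2 0.93). Ifnb1, the gene of interferon-β, was at 0.953, 0.489 and 1.46 CPM against 0, 0.0667 and 0.229, a call (log2 3.15, SE 0.73, edgeR adjusted p 0.00214) on few reads. Il6 (log2 1.55, edgeR adjusted p 0.0579) overlapped between the groups and was not called. Il1b stood at 0.217 to 0.318 CPM in iM1 and 0.181 to 0.400 in the controls, and Il12b at 0 in all 3 iM1 libraries.

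Chemokine genes split, with 8 of 21 tested (of 24) higher and 2 lower, and a median log2 fold change of 0.56. The negative pool was above M2_mock for 7 of the 21 and below it for 0, with a median of 0.82. Of all genes, 6.67% were called higher there. Ccl5, which attracts T cells and monocytes, was at 21.9, 32.3 and 60.1 CPM against 9.75, 10.9 and 9.55 (log2 1.92, SE 0.49, edgeR adjusted p 0.00392). Ccl2, which attracts monocytes, was at 43.6, 51.8 and 70.6 CPM against 16.4, 24.8 and 20.6 (log2 1.43, SE 0.26, edgeR adjusted p 9.80e-05). The interferon-induced Cxcl10 was at 12.8, 11.4 and 34.9 CPM against 4.33, 4.47 and 6.01 (log2 1.99). The groups were separated for these 3 genes, yet the call of Cxcl10 was lost without iM1 replicate 3 (log2 1.28). The decreases were Cxcl12 (log2 -1.09) and Pf4 (-0.93), and 1 of these calls was lost without iM1 replicate 1 or 2, without neg_siPool replicate 2 or 3, and in DESeq2.

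Surface genes of activation and co-stimulation moved both ways, 7 higher and 6 lower of 20, with a median log2 fold change of 0.06. The negative pool was above M2_mock for 10 of the 20 and below it for 0 (median 0.47), where 6.67% of all genes were called higher. Tlr2, the receptor for bacterial lipoproteins, was at 75.4, 62.9 and 100.4 CPM against 22.7, 23.7 and 26.1 (log2 1.72, SE 0.19, edgeR adjusted p 5.92e-08), and Cd40, through which T cells activate macrophages, at 14.9, 17.7 and 21.7 CPM against 6.86, 7.74 and 5.89 (log2 1.41, SE 0.21). Cd80 (log2 0.84) and Cd86 (0.43), the ligands of CD28, were called higher as well. Pdcd1lg2, which codes for the checkpoint ligand PD-L2 and is induced by IL-4, was lower (log2 -1.15, edgeR adjusted p 0.0367), as were the Fc receptor genes Fcgr4 (-0.66) and Fcgr3 (-0.33) and the LPS receptor Tlr4 (-0.34). Without iM1 replicate 1, 3 members were called lower.

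Of 58 interferon-stimulated genes tested (of 60), 21 were higher in iM1 than with the negative pool, 0 lower and 37 not called, with a median log2 fold change of 0.34, and all 58 were higher with the negative pool than in M2_mock, a comparison that called 6.67% of all genes higher and 5.03% lower (11.7% in all) and shares the neg_siPool libraries with the first. The median of that second comparison was 1.17. The count of 21 fell to 9 without iM1 replicate 3, to 11 without neg_siPool replicate 1 and to 10 without neg_siPool replicate 2. It rose to 38 without the filter on low counts and to 42 with only the compared groups in the model, and each of these settings called 1 member lower.

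The members of largest change are antiviral effectors. Ifit1bl1, of the Ifit family that binds viral RNA, was at 45.4, 50.7 and 88.3 CPM against 7.70, 12.006 and 16.8 (log2 2.33, SE 0.37, edgeR adjusted p 1.28e-05). Ifit3b was at 96.0, 74.5 and 133 CPM against 41.0, 38.2 and 55.4 (log2 1.17, SE 0.27), and Iigp1, a GTPase that attacks the vacuoles of parasites, at 17.7, 21.7 and 30.6 CPM against 8.85, 12.5 and 9.21 (log2 1.20, SE 0.24). The groups did not overlap in these genes, and iM1 replicate 3 was the highest library in each. Ifit3 and Ifit3b are near-identical, as are other members of this family, and how reads matching both were counted is not given in the sources used here, so the split between them is uncertain.

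Promoters of these genes hold the core of the element to which interferon regulatory factors bind. The letters GAAANNGAA were searched on both strands of the RefSeq sequence (GRCm38.p6) from 250 bases before to 50 after the start of each gene, and 29 of 43 listed genes with such a sequence held them (67.4%), against 8.93% of all 10137 genes with a sequence, 9.85% of those called higher and 8.57% of those called lower. For 3 genes of the list that rose, 30 bases around a match are shown on the strand of the gene, the capitals marking the match, which reads as the reverse complement of the letters. They lie at chr19:34602052-34602081 on the minus strand for Ifit1bl1, and at chr19:34607813-34607842 and chr19:34583417-34583446 on the plus strand for Ifit3b and Ifit3.
Ifit1bl1: ctctgtaggtTTCATTTTCtgtaggttgga
Ifit3b: tactttcctcTTCCCTTTCacaaacactga
Ifit3: tactttcctcTTCCCTTTCacaaacactga
The match began 103 bases before the start of Ifit1bl1, 134 before that of Ifit3b and 102 before that of Ifit3, and the last 2 stretches were identical. Which motifs and lists to show was chosen after the shares were seen.

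The genes called in the branches of antigen presentation moved in opposite directions. Of 19 genes of MHC class I presentation, by which every cell displays its own peptides, 10 were higher in iM1 and 0 lower, with a median log2 fold change of 0.34. H2-Q6 was at 243, 216 and 255 CPM against 56.0, 53.9 and 40.4 (log2 2.25, SE 0.18, edgeR adjusted p 5.38e-11), and its near-identical neighbour H2-Q7 at 178, 153 and 197 CPM against 43.5, 44.6 and 36.8 (log2 2.08), reads of which may be shared. Tap1, the transporter that loads the peptides, was at 341, 305 and 343 CPM against 206, 213 and 205 (log2 0.66). All 3 were separated, whereas B2m, the light chain of all class I molecules, overlapped at 5795, 4954 and 6374 CPM against 5558, 5538 and 5762. The count of 10 fell to 5 without iM1 replicate 3 and to 6 without neg_siPool replicate 2 or 3. DESeq2, the replicate block, the model without the filter and that with only the compared groups each called 1 member lower. The negative pool was above M2_mock for 16 of the 19, where 6.67% of all genes were called higher.

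For MHC class II, which presents engulfed antigen to helper T cells, 7 of 10 genes were lower in iM1 and 0 higher, with a median log2 fold change of -0.48 and 7 lower with every library left out. Without the filter on low counts 2 members were called higher, and 1 with only the compared groups in the model. DESeq2 called 0 higher. Ciita, the master regulator of these genes, was at 8.77, 10.4 and 8.45 CPM in iM1 and at 19.4, 19.5 and 21.3 CPM in the controls (log2 -1.12, SE 0.15, edgeR adjusted p 1.40e-06). The chain genes H2-Eb1 (211, 186 and 183 CPM against 335, 323 and 326, log2 -0.76) and H2-Aa (267, 252 and 285 CPM against 430.2, 428 and 418, log2 -0.67) and the peptide exchange factor H2-DMa (log2 -0.72) followed, each with separated groups. In M1_mock against M2_mock, which shares no library with the comparison, all 10 genes were higher, with a log2 fold change of 2.18 for Ciita. Of all genes, 30.9% were called higher there and 60.7% either way.

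Genes of IL-4 activation were lower in part. Of 28 tested (of 31), 8 were lower and 1, Tgm2 (log2 0.43), higher, with a median log2 fold change of -0.40. With a replicate block 14 were lower, and 13 without the filter or with only the compared groups. Ear2, a ribonuclease of the eosinophil family, was at 0.953, 1.36 and 0.851 CPM against 3.55, 2.93 and 4.63 (log2 -1.80, SE 0.36, edgeR adjusted p 2.84e-04). The lectin genes Clec10a (3.81, 5.54 and 3.65 CPM against 12.8, 17.4 and 15.3, log2 -1.79) and Mgl2 (4.13, 3.97 and 3.22 against 13.3, 11.5 and 9.49, log2 -1.60), whose products bind galactose sugars, and the chitinase-like Chil3 (506, 591 and 448 against 1011, 864 and 765, log2 -0.77) were separated between the groups.

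The markers most often used for this state did not move as a block. Retnla was at 83.9, 166 and 59.5 CPM against 180.5, 368 and 139, which overlapped and was not called (log2 -1.15, edgeR adjusted p 0.0661), but in both groups replicate 2 was the highest and replicate 3 the lowest, and the replicate block called it (log2 -1.16). Mrc1, the mannose receptor, was separated at 299, 285 and 249 CPM against 361, 338 and 361 without a call (log2 -0.35, edgeR adjusted p 0.0604). Arg1, which turns arginine into urea and ornithine, was at 25.04, 80.2 and 24.9 CPM against 34.8, 65.4 and 32.6 (log2 -0.02, SE 0.66, edgeR adjusted p 0.99). In this test, which does not pair the replicates, the spread of Arg1 was so wide that a change of moderate size was not detectable. As for Retnla, replicate 2 was the highest library of Arg1 in both groups. Nos2, the nitric oxide synthase that competes with it for arginine, was at 1.84, 1.96 and 2.86 CPM against 0.181, 0.667 and 0.286 (log2 2.57, SE 0.48, edgeR adjusted p 1.47e-04), separated between the groups at a low level. Of the 14 genes of arginine and nitric oxide metabolism 4 were higher, Ass1 (log2 1.96), Gch1 (0.67) and Odc1 (0.58) beside Nos2, and 2 lower. With at least 10 counts asked of every library 2 were higher, and 4 were lower without the filter or with only the compared groups.

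Most genes of the synthesis of sterols and fatty acids, which the SREBP factors control, were lower. Of 38 genes, 32 were lower in iM1 and 0 higher, with a median log2 fold change of -0.69 and 25 to 32 lower when a library was left out, and DESeq2 called 0 higher as well. The desaturase genes Scd2 (32.4, 31.7 and 39.0 CPM against 142, 118 and 238, log2 -2.27) and Scd1 (9.09, 9.35 and 8.51 CPM against 40.7, 24.9 and 56.9, log2 -2.19) had edgeR adjusted p-values of 1.90e-08 and 1.11e-08. Fads2, a desaturase of polyunsaturated fatty acids, fell as well (log2 -1.92). The control libraries spread widely in these genes, with neg_siPool replicate 3 the highest, and the iM1 libraries lay together below them. Smaller decreases were those of Sqle, the squalene epoxidase, at 24.5, 25.4 and 26.1 CPM against 51.6, 47.5 and 60.8 (log2 -1.07), and of the fatty acid synthase Fasn at 37.5, 32.7 and 39.5 CPM against 60.6, 63.2 and 84.2 (log2 -0.93). Of the same 38 genes, 26 were lower with the negative pool than in M2_mock, where 5.03% of all genes were called lower.

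Genes of cholesterol export and lipid uptake were lower in part. Of 12 genes of the sterol receptor LXR and cholesterol efflux tested (of 13), 7 were lower and 0 higher, in DESeq2 also 0 higher. Apoe, the lipoprotein that macrophages secrete, was at 4136, 4073 and 3065 CPM against 9011, 8208 and 8952 (log2 -1.21, SE 0.19, edgeR adjusted p 1.17e-05), Pltp, the phospholipid transfer protein, at 225, 240.4 and 165 against 579, 533 and 571 (log2 -1.42, SE 0.11, edgeR adjusted p 3.67e-11), and the exporter Abcg1 at 372, 344 and 346 against 541, 519 and 568 (log2 -0.62). The groups were separated in all 3. Among 23 PPARg target and lipid handling genes tested (of 25), 11 were lower and 1 higher. Lpl, which releases fatty acids from lipoproteins, was at 876, 1190.2 and 1057 CPM against 1649, 2017 and 2104 (log2 -0.89, SE 0.13, edgeR adjusted p 6.20e-06), the scavenger receptor Cd36 at 1364, 1670.1 and 1379 against 2103, 2411 and 2166 (log2 -0.60), and Hadhb, a subunit of the mitochondrial enzyme of β-oxidation, at 4.32, 5.70 and 5.11 against 7.94, 9.34 and 10.8 (log2 -0.89). The increase was that of Olr1 (log2 1.16, edgeR adjusted p 0.0213), which was lost without iM1 replicate 2 (log2 1.06) and without neg_siPool replicate 1 (1.08) or 3 (0.88).

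Lysosomal genes were lower in part. Of 32 genes of lysosomal enzymes and the proton pump, 16 were lower and 4 higher, with a median log2 fold change of -0.22. The protease genes Ctsl (3816, 3896 and 3396 CPM against 6868, 6648 and 7248, log2 -0.90) and Ctsd (14968, 14409 and 12545 CPM against 25254, 22851 and 23471, log2 -0.77) and the membrane protein gene Lamp1 (2055, 2101 and 2203 CPM against 3201, 2933 and 3095, log2 -0.54) were separated between the groups, with edgeR adjusted p-values of 2.77e-07, 1.28e-08 and 1.21e-05. Ctss (log2 -0.62) and Ctsb (-0.57) fell likewise, while Ctsk (0.53) and Gaa (0.42) were higher.

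The palindrome CACGTG, the E-box to which Myc and the lysosomal regulators of the TFEB family can bind, stood in 10 of 24 promoters of this list (41.7%). It stood in 11.7% of all promoters, 14.4% of those of genes called higher and 13% of those called lower. It is shown in capitals for 3 listed genes that fell, within 30 bases at chr13:64370739-64370768 (minus strand, Ctsl), chr7:142387908-142387937 (minus strand, Ctsd) and chr8:13159121-13159150 (plus strand, Lamp1).
Ctsl: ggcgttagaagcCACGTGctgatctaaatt
Ctsd: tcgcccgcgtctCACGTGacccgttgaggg
Lamp1: gatgccgactggCACGTGaccacatcacgt
The match began 236, 98 and 28 bases before the start of these genes. The same letters stood in 8 of 39 promoters of ribosome biogenesis genes (20.5%) and 6 of 27 of the sterol list (22.2%), and in 0 of 43 of the interferon list.

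Of 45 genes of ribosome biogenesis, a group that Myc is known to activate, 20 were higher in iM1, 0 lower and 25 not called, with a median log2 fold change of 0.22, and DESeq2 called 0 lower as well. Rrp9, of the machinery that processes ribosomal RNA, was at 29.4, 21.8 and 25.9 CPM against 17.8, 17.8 and 14.6 (log2 0.62, SE 0.12, edgeR adjusted p 2.66e-04), and Nop10, which guides its modification, at 46.0, 44.3 and 47.3 against 30.7, 30.5 and 29.0 (log2 0.61, SE 0.12, edgeR adjusted p 2.04e-04). Against M2_mock, Nop10 overlapped and was not called (44.4, 40.2 and 49.8 CPM, log2 0.03). Bysl (log2 0.56) and Rrp12 (0.56), of the assembly of the small subunit, were separated between the groups as well. The count fell to 12 without iM1 replicate 3 or neg_siPool replicate 3 and to 13 without neg_siPool replicate 1.

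Genes of DNA replication and mitosis, the classical targets of E2f1, were lower in part. Of 52 genes, 13 were lower and 1, Bub1b (log2 0.49), higher, with a median log2 fold change of -0.37. Pcna, the clamp of the replication fork, was at 61.1, 63.1 and 59.0 CPM against 91.3, 98.4 and 95.3 (log2 -0.64, SE 0.08, edgeR adjusted p 2.71e-07), and the mitotic cyclin gene Ccnb2 at 1.14, 1.41 and 1.70 against 2.65, 4.40 and 2.92 (log2 -1.21, SE 0.28, edgeR adjusted p 0.00124). Both were separated between the groups. The count of 13 fell to 6 without iM1 replicate 1, to 8 without iM1 replicate 2 and to 7 without neg_siPool replicate 2, and Bub1b was no longer called without iM1 replicate 1 or 3 or neg_siPool replicate 1. The letters TTTGGCGC or TTTCGCGC, of the E2F site, stood in 10 of 40 promoters of the list (25%), 1.77% of all promoters, 1.68% of those called higher and 1.18% of those called lower.

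Relatives and partners of the targets were mostly not called, with 5 of 27 tested (of 28) higher and 2 lower, where 12.5% of all genes were higher and 13.9% lower. Mxd4, which competes with Myc for the partner Max, was at 26.8, 27.5 and 24.4 CPM against 52.7, 55.0 and 60.2 (log2 -1.09, SE 0.09, edgeR adjusted p 4.47e-11), and Rb1, the repressor of E2F factors, at 24.4, 27.5 and 26.5 against 40.2, 37.5 and 37.7 (log2 -0.56, SE 0.12). Stat2, a transducer of interferon signals, was at 286, 267 and 295 CPM against 166, 185 and 205 (log2 0.61). The groups did not overlap in these genes. The count of 5 fell to 3 without iM1 replicate 2, neg_siPool replicate 3 or the filter.

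**Figure D4:**
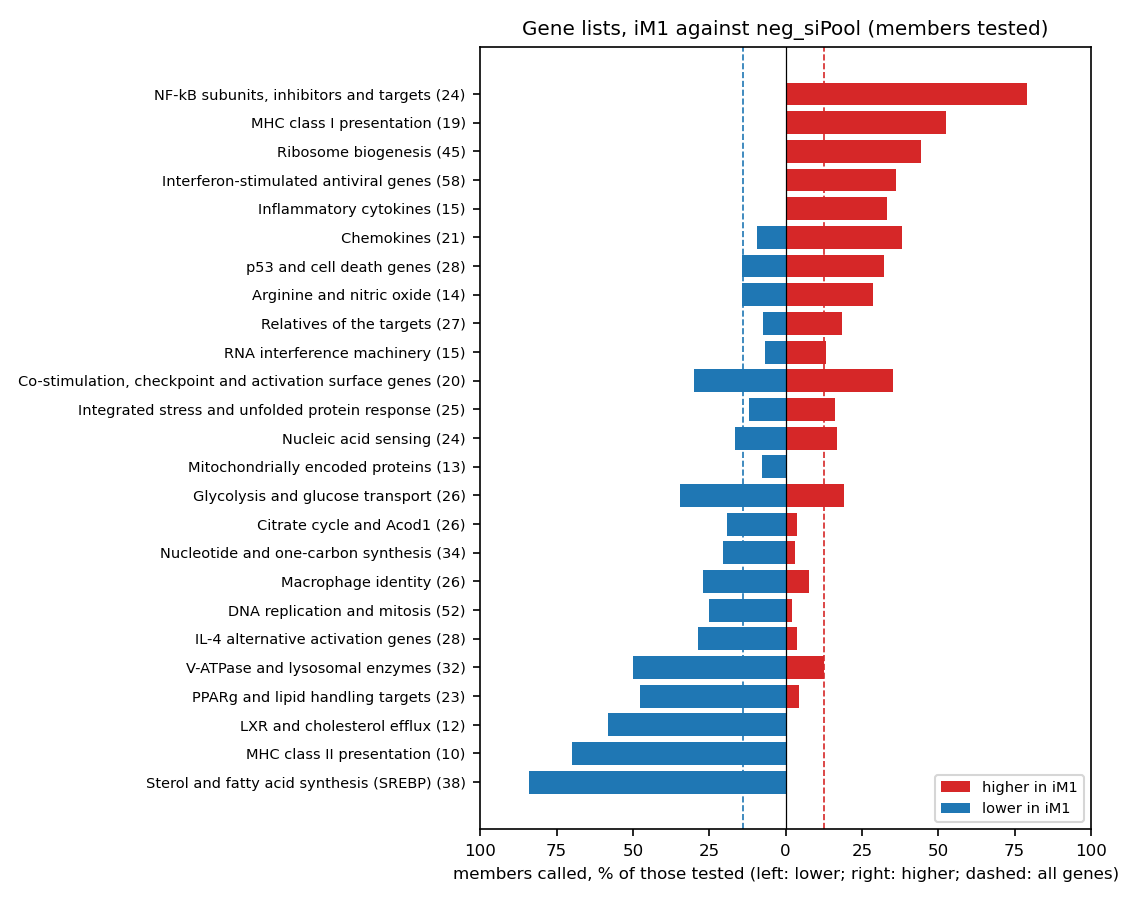
Share of the tested members of each list called higher (red, right) or lower (blue, left) in iM1 than with the negative pool, in per cent (x axis), with the number tested beside each name (y axis). The dashed lines mark the share of all genes, 12.5% higher and 13.9% lower. The bars of NF-kB (19 of 24 higher) and of sterol and fatty acid synthesis (32 of 38 lower) are the longest.

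Central carbon metabolism showed no common direction. Of 26 glycolysis and glucose transport genes, 5 were higher (3 without iM1 replicate 1) and 9 lower. The lysosomal glucose carrier gene Slc2a6 was at 82.0, 69.8 and 90.5 CPM against 34.4, 33.4 and 36.8 (log2 1.21, SE 0.14, edgeR adjusted p 1.13e-07) and the phosphofructokinase Pfkl at 135, 126 and 122.7 against 75.3, 76.2 and 75.3 (log2 0.76), whereas the aldolase Aldoc was at 5.85, 4.29 and 5.53 against 13.3, 10.7 and 14.7 (log2 -1.31) and the enolase Eno2 at 57.8, 57.4 and 42.4 against 84.7, 90.8 and 85.4 (log2 -0.73). All 4 were separated. Of 26 genes of the citrate cycle and Acod1, 5 were lower (3 without iM1 replicate 1), among them Suclg2 (log2 -0.79) and Idh1 (-0.41), and Acod1 was higher. Members of this list called higher, Acod1 included, numbered 2 without neg_siPool replicate 1, with only the compared groups or with 10 counts in every library, and 3 with the replicate block. Among 34 genes of nucleotide and one-carbon synthesis, 7 were lower (11 with only the compared groups) and 1 higher (0 without iM1 replicate 1 or neg_siPool replicate 3), and Mthfd1l, of mitochondrial folate metabolism, changed by -0.73 on the log2 scale. The serine synthesis genes Phgdh (log2 -1.06) and Psat1 (-0.76) overlapped between the groups and were not called, but were with the replicate block (-1.09 and -0.79).

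Genes of p53 and cell death included 9 higher and 4 lower of 28, with 7 lower under the replicate block. Cdkn1a, the inhibitor of cyclin-dependent kinases, was at 293, 213 and 341 CPM against 166, 150.1 and 166 (log2 0.81, SE 0.16, edgeR adjusted p 2.50e-04), and the death receptor gene Fas at 5.15, 4.78 and 8.03 against 2.77, 3.13 and 3.66 (log2 0.90, SE 0.20). Sesn1, a stress-induced brake on mTORC1, was at 24.03, 32.3 and 23.1 CPM against 60.1, 58.8 and 62.9 (log2 -1.19, SE 0.11, edgeR adjusted p 7.86e-10). The groups were separated for all 3.

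The combined knockdown was next set against each single knockdown, which asks what the combination added. Against siMyc, 0 genes were higher and 7 lower of 14172 (0.0494% called). At an unadjusted p under 0.05, 204 were higher and 223 lower, 3.01% of all genes, DESeq2 called 0 higher and 10 lower, and edgeR without the filter on low counts called 28 in all. For 12031 genes (84.9%) the 95% interval of the difference lay within 1 log2 unit either way, and for the other genes it reached beyond a 2-fold difference. The 7 genes are the targets Pparg (log2 -1.20, edgeR adjusted p 3.15e-11), Stat6 (-0.94, 1.01e-07) and E2f1 (-0.93, 4.26e-06), and Angptl4 (-1.20), Sort1 (-0.78), Gm13910 (-0.45) and Snx27 (-0.39). Leaving out iM1 replicate 1, 2 or 3 in turn left 3 calls.

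Of the 4 genes that are no targets, Angptl4 codes for an inhibitor of lipoprotein lipase that Pparg induces. It was at 1.97, 2.83 and 3.10 CPM in iM1, at 5.67, 6.36 and 6.21 with siMyc, at 1.47, 1.68 and 1.34 with siPparg and at 4.21, 3.74 and 4.63 with the negative pool. The iM1 libraries lay below siMyc (edgeR adjusted p 0.0397) and above siPparg (log2 0.80, edgeR adjusted p 0.0478). Sort1 codes for the sorting receptor sortilin and Snx27 for a sorting nexin of endosomes, and both were below the control with the Pparg pool, by -0.99 and -0.86 on the log2 scale.

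The genes of largest change had similar values in iM1 and siMyc. For Acod1 the log2 difference was 0.34 (95% interval -0.30 to 0.97), for Clec4e 0.36 (-0.12 to 0.83), for H2-M2 0.23 (-0.34 to 0.80), for Scd1 -0.01 (-0.51 to 0.48) and for Ciita 0.21 (-0.13 to 0.54). Nos2 had a log2 difference of 1.02 (0.27 to 1.76) and an edgeR adjusted p of 1, and Cmbl one of -1.06 (-1.56 to -0.55) at an adjusted p of 0.243. The siMyc libraries against the negative pool, which the combined pool shares as its control, gave 1975 genes higher and 2213 lower (13.9% and 15.6% of all, 29.6% together). List by list they gave, for NF-kB, 18 higher and 0 lower, for the sterol list 1 higher and 29 lower, for MHC class II 0 higher and 7 lower, for ribosome biogenesis 23 higher and 0 lower, and for interferon-stimulated genes 10 higher and 0 lower.

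The other single pools left larger differences. Against siPparg, 1088 genes were higher and 1456 lower in iM1 (7.68% and 10.3% of all, 18% together), against siE2f1 1453 and 1605 (10.3% and 11.3%, 21.6% together), and against siStat6 1477 and 1672 (10.4% and 11.8%, 22.2% together). H2-M2, Acod1 and Clec4e had the 3 largest increases in each of these comparisons, by 2.75, 2.16 and 2.31 on the log2 scale over siPparg, 4.45, 4.19 and 3.30 over siE2f1, and 4.19, 3.41 and 3.32 over siStat6. S100a4 was lower by -2.42, -2.12 and -2.46 on the log2 scale in the same order. Gamt, of creatine synthesis, was at 1.72, 1.58 and 2.55 CPM in iM1 against 6.74, 7.60 and 6.92 with the negative pool, and differed from siPparg by -2.09 and from siE2f1 by -2.13 on the log2 scale.

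Each single pool was also set beside the negative pool, whose libraries these comparisons share with the combined knockdown. With siPparg 384 genes were higher and 430 lower (2.71% and 3.03% of all, 5.74% together), with siE2f1 37 and 92 (0.261% and 0.649%, 0.91% together), and with siStat6 66 and 148 (0.466% and 1.04%, 1.51% together). The Pparg pool alone gave Acod1 a log2 fold change of 1.78 (edgeR adjusted p 0.0016), Clec4e one of 1.52 (5.83e-04), Cmbl -1.62 (5.53e-06) and Cfb 1.14 (0.13). Of the PPARg list 9 genes were lower with it and 0 higher, and of the IL-4 list 4 were higher and 0 lower. With the Stat6 pool, which left 27.3% of the mRNA, 0 genes of the IL-4 list were called either way, with a median log2 fold change of -0.09. This count is near the share of all genes called there (1.51%). With the E2f1 pool, 0 genes of DNA replication and mitosis were called either way (median -0.10), and 5 of the sterol list were lower. The count of 0 is again near the share of all genes (0.91%), so neither count of 0 shows anything particular to its list.

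Whether the effects of the single pools add up was tested with a contrast of the combined effect against the sum of the 4 single effects on the log2 scale. It called 239 genes, with the combined effect above the sum for 155 and below it for 84 (1.09% and 0.593% of all, 1.69% together). As a description, the contrast had the opposite sign to the sum in all 239, so none of these calls was a combined effect that went further than the sum in its direction, though the sum and the contrast share libraries. Its interval lay within 1 log2 unit for 46.4% of genes. The neg_siPool libraries enter it several times over, and without neg_siPool replicate 3 it called 48 genes, without replicate 1 83, and without replicate 2 122. The knockdown of each target was also unequal between the combined and single pools, so that the amount of siRNA and the combination cannot be told apart. B3gnt7 was at -2.10 in iM1, and its single effects of -1.93 (siMyc), -1.79 (siPparg), -1.28 (siE2f1) and -0.97 (siStat6) sum to -5.97, a difference of 3.87 (SE 0.58, edgeR adjusted p 3.38e-04). Nlrp3, the sensor of the inflammasome, was at 1.19 in iM1 with single effects that sum to 3.59, a difference of -2.40 (SE 0.39, edgeR adjusted p 5.99e-04). Among called genes whose mean log2 CPM reached 2 and that have a proper symbol, Dusp4 (-2.56), Mmp8 (-2.27) and Pik3r2 (-2.21) followed on the negative side, and Best1 (2.92), Scd1 (2.65) and Traf3ip3 (2.53) on the positive side. Genes with fewer reads had larger differences.

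The question of the series, whether the knockdown moves M2-like macrophages in the M1-like direction, was addressed with M1_mock against M2_mock, which shares no library with iM1 or neg_siPool. Of the 1778 genes higher in iM1, 1065 were higher in M1_mock (59.9% of the first list and 24.4% of the 4373 genes of the second), 174 were lower (9.79%) and 539 were not called, where 30.9% of all genes were called higher in M1_mock. Of the 1972 genes lower in iM1, 1316 were lower in M1_mock (66.7%, and 31.2% of 4224), 198 were higher (10%) and 458 were not called, where 29.8% of all genes were called lower. With untransfected M1-like against M2-like macrophages as the reference, 1153 (64.8%) and 1373 (69.6%) were called the same way, where 31.3% of all genes were called higher and 30.2% lower (61.5% together). That reference had no transfection reagent and may differ in time of harvest.

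The size of the changes differed from gene to gene. Acod1 was at 411, 481 and 438 CPM in M1_mock and at 288, 220.2 and 403 in iM1, and Clec4e at 354, 308 and 283 against 162, 170.0 and 233. In M2_mock Acod1 was at 1.34, 3.08 and 3.14 CPM, below all libraries of the negative pool. H2-M2 was at 45.9, 35.5 and 48.8 CPM in M1_mock, all below the iM1 values of 99.3, 88.0 and 188. Scd1 stood at 1.09, 1.13 and 1.80 CPM in M1_mock and at 8.51 to 9.35 in iM1. The log2 fold change of M1_mock against M2_mock was 11.38 for Nos2, where that of iM1 against the negative pool was 2.57. MHC class II genes went the opposite way, with Ciita at 131, 165 and 141 CPM in M1_mock, 30.7, 32.6 and 33.5 in M2_mock, and 8.77, 10.4 and 8.45 in iM1.

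**Figure D5:**
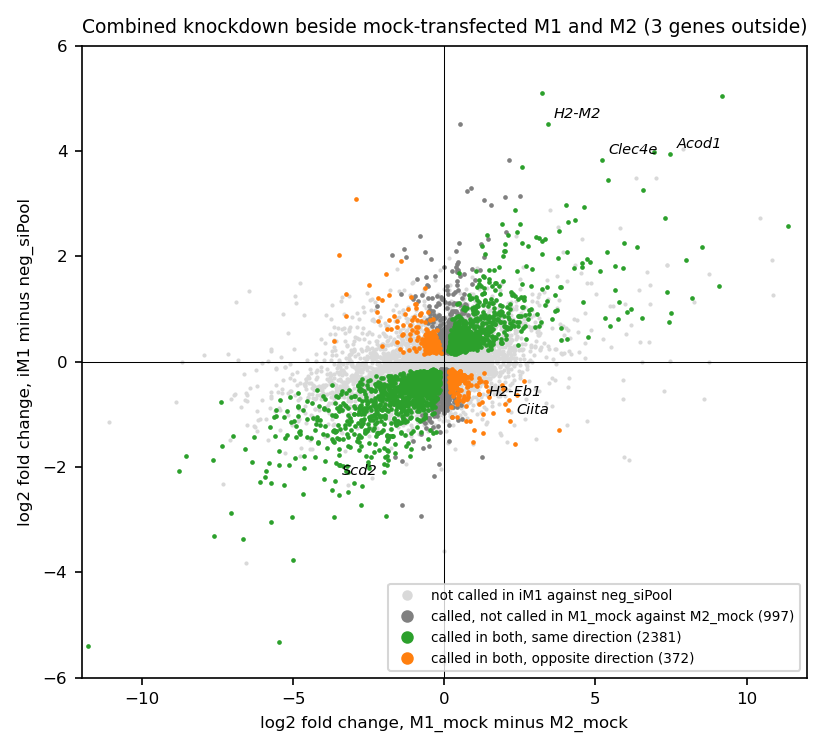
Log2 fold change of iM1 against neg_siPool (y axis) by that of M1_mock against M2_mock (x axis), with 1 point per gene. Green points are the 2381 genes called in both comparisons in the same direction, orange points the 372 called in opposite directions, dark grey points the 997 called for iM1 alone, light grey points the genes not called for iM1, and 3 genes lie outside the axes.

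Markers of other cell types were checked beside these results. In bulk RNA, fewer cells of a type and less RNA per cell cannot be told apart. Among 26 genes of macrophage identity, with a summed level of 16068 to 17472 CPM in iM1 and 17583 to 18280 in the controls, Lyz2 overlapped at 8225, 9133 and 8361 CPM against 8641, 8146 and 9036, and Adgre1 (F4/80) was not called (log2 -0.23). Of this list 7 were lower and 2 higher, among them the chemokine receptor gene Ccr2 (0.763, 2.61 and 1.82 CPM against 6.14, 5.74 and 5.32, log2 -1.70) and, on few reads, Cx3cr1 (log2 -1.97), and 3 were lower without iM1 replicate 3 or neg_siPool replicate 2. Without iM1 replicate 1 or 2, or neg_siPool replicate 3, 0 were higher. The 7 B cell genes summed to 40.6 to 185 CPM in iM1 and 24.1 to 64.4 in the controls, the highest value being that of iM1 replicate 2, and edgeR and DESeq2 called 0 of them, while the replicate block called 4 higher. The 10 mesothelial and fibroblast genes summed to 257 to 421 and 294 to 426 CPM, with Upk3b called lower (log2 -1.43). Neutrophil genes (4.004 to 6.85 CPM against 3.80 to 5.32, with Ly6g, Retnlg and S100a9 at 0 in all 6 libraries), mast cell genes (4.32 to 5.23 against 4.75 to 7.95), T cell genes (3.04 to 4.14 against 2.52 to 6.92, Lck called higher with log2 1.11), NK cell genes (0.547 to 3.75 against 0.0572 to 1.32), dendritic cell genes (4.56 to 5.34 against 3.61 to 5.20, Siglech at 0 in all 6, Ccr7 called higher with log2 1.49), eosinophil genes (0.191 to 0.365 against 0.114 to 0.267) and erythroid and platelet genes (0.318 to 0.791 against 0.400 to 0.782, Ppbp at 0 in all 6) stayed low. The part of these cells in the results above was not tested.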

How the data were processed

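RNA sequencing counts of 36 PE150 libraries (12 groups with 3 replicates) were used, and groups were taken from the sample labels. Reads were trimmed (Trimmomatic) and aligned by TopHat, named TopHat2 in the submitters' processing notes, to GRCm38/mm10. The authors deposited raw counts per gene from featureCounts, without normalization. The annotation release, strand setting and treatment of reads matching several genes are not given in the sources used here. Of 39179 gene identifiers, 37607 had a symbol and coordinates in GENCODE M21.

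Genes with few reads were removed by filterByExpr of edgeR (at least 10 counts, 15 in total), then counts were scaled by TMM, and tested by the quasi-likelihood method of edgeR (two-sided, Benjamini-Hochberg adjustment) in 1 model with 1 coefficient per group. The study's methods name DESeq2, which was run as an alternative. Each SE was derived from the log2 fold change and its F statistic. On counts simulated for iM1 against neg_siPool (13808 genes), edgeR recovered 98 of 100 genes changed by 1 log2 unit and 100 of 100 changed by 2, and called 16 unchanged genes. The changed genes were drawn only from those above a floor of mean CPM, and all others were left unchanged. Changes below 1 log2 unit or in genes with few reads were not simulated, so their recovery is not known. R 4.3.3, edgeR 4.0.16, DESeq2 1.42.0, Python 3.11.15, NumPy 2.4.6, pandas 2.3.3 and matplotlib 3.10.9 were used.

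The replicate numbers appear to pair iM1 with neg_siPool, though the labels state no pairing. The deviations of same-numbered libraries from their group means correlated at 0.25, 0.17 and 0.29 over 10223 genes, those of different numbers at -0.24 to -0.003. Deviations cancel out within each group, so positive values for the same numbers push the others down, and these add little. The other alternatives were scaling by RLE, leaving out the filter, asking 10 counts of each library, only the compared groups in the model, M2_mock in place of neg_siPool, and each library left out in turn. For the named genes, M2_mock as the control was added after the data were seen.

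Genes are named in the text when they are targets, belong to the 12 largest increases or decreases (adjusted p under 0.05, mean log2 CPM of at least 2, separated groups, no Gm, Rik, LOC or pseudogene symbol), are among the 4 members of largest change of a list (mean log2 CPM of at least 1), or are among the 4 largest changes in each direction of a contrast between iM1 and the single pools. Other members named were chosen after their values were seen. The comparison, the lists and these rules were chosen with earlier results of these data known. Some genes that these rules select are not reported here. The 18 single-end libraries of the series were not used here.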

Additional observations from a re-analysis of the deposited data

How the results depend on the processing

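With M2_mock in place of the negative pool, 2687 genes were higher (19%) and 2567 lower (18.1%) in iM1. The comparison with siMyc called 28 genes without the filter on low counts. The additivity contrast called 478 genes with only the compared groups in the model. With a library left out in turn, iM1 against neg_siPool called 1272 to 1464 genes higher and 1537 to 1667 lower, iM1 against siMyc 3 to 6, against siPparg 1705 to 2487, against siE2f1 2293 to 2989, against siStat6 2401 to 3104, the additivity contrast 48 to 198 and neg_siPool against M2_mock 1118 to 1643, and 1835 to 1991 genes were called the same way in iM1 and M1_mock. The log2 fold changes of the targets ran from -1.86 to -1.76 (Pparg), -1.39 to -1.26 (Myc), -0.94 to -0.82 (Stat6) and -0.82 to -0.66 (E2f1). Of 121 other named genes, 94 kept their call and direction under every other scaling, filter, model or left-out library. With M2_mock in place of the negative pool, an alternative added for these genes after the data were seen, Tlr9 (0.67 in place of -0.73), Pik3r2 (-0.35 in place of 0.60) and Traf3ip3 (0.98 in place of -0.65) turned round, Olr1 (0.92), Nop10 (0.03), Ccnd1 (-0.30), Suclg2 (-0.34) and Idh3g (-0.08) lost their call, 7 gained one, and 88 kept call and direction throughout. The cause of these changes was not tested. With 3 libraries a group, the interval lay within 1 log2 unit either way for 77.2% of genes in iM1 against neg_siPool.

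The replicate block, which takes the replicate numbers as pairs, called 2023 genes higher and 2253 lower in iM1 against neg_siPool and 8 lower against siMyc. It called 455 genes in the additivity contrast, where the numbers do not pair all groups (lowest correlation 0.04). Of the named genes it added Retnla (-1.16), Phgdh (-1.09), Psat1 (-0.79), mt-Nd4l (-0.58), Slc7a2 (-0.47) and Zbp1 (0.62) to the calls, lost none and changed no other call.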

Other observations

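Of the 24 nucleic acid sensing genes, 4 were lower and 4 higher in iM1 than with the negative pool, shares near those of all genes (13.9% and 12.5%). Tlr8, a sensor of single-stranded RNA, was at 59.0, 73.2 and 70.6 CPM against 109, 111 and 145 (log2 -0.85, SE 0.13, edgeR adjusted p 1.35e-05), Tlr9, a sensor of DNA, at 35.6, 29.9 and 38.6 against 50.4, 58.0 and 64.7 (log2 -0.73), and Unc93b1, which brings these receptors to the endosome, at 438, 428 and 423 against 675, 663 and 691 (log2 -0.65, SE 0.08, edgeR adjusted p 1.36e-07). The groups were separated in all 3. Tlr9 was nevertheless above M2_mock (18.8, 21.2 and 25.7 CPM, log2 0.67, edgeR adjusted p 0.00693), and the negative pool was above M2_mock by 1.40 on the log2 scale. The genes called higher were the cytosolic sensors Ddx58 (log2 0.41) and Ifih1 (0.39) and their mediators Tbk1 (0.38) and Irf1 (0.41). The higher count fell to 1 without iM1 replicate 3 or neg_siPool replicate 1 and to 2 without neg_siPool replicate 2, and rose to 7 without the filter or with only the compared groups. Both groups received siRNA, and 14 of the 24 were higher and 1 lower with the negative pool than in M2_mock. That comparison called 6.67% of all genes higher and 5.03% lower.

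Genes of the integrated stress and unfolded protein responses were mostly not called, with 4 higher and 3 lower of 25 (7 lower with the replicate block or with only the compared groups, and 5 without the filter). Those shares were near those of all genes (12.5% higher and 13.9% lower). Slc7a11, the cystine importer, was at 48.6, 60.7 and 52.2 CPM against 29.7, 38.3 and 28.6 (log2 0.75, SE 0.20, edgeR adjusted p 0.00566), and Ppp1r15a, which restarts translation after stress, at 94.1, 75.8 and 80.5 against 54.1, 50.6 and 46.3 (log2 0.73, SE 0.10, edgeR adjusted p 2.23e-06). Of 15 genes of RNA interference 2 were higher and 1, Ago1 (log2 -0.25), lower, beside 12.5% and 13.9% of all genes, and 0 were higher without iM1 replicate 1. Of 13 mitochondrially encoded genes 1 was lower, mt-Nd1 (log2 -0.37), which lost its call without iM1 replicate 1 or 2 or any neg_siPool replicate, while 7 were lower without the filter and 9 with only the compared groups. The negative pool was itself below M2_mock for 10 of the 13 and above it for 0, with a median log2 fold change of -0.56. That comparison called 5.03% of all genes lower. The letters AGGTCANAG, of the PPAR element, stood in 1.68% of all promoters, 2.04% of those of genes called higher and 1.81% of those called lower, and TCACNCCAC, of the sterol element, in 1.36%, 1.09% and 1.95%.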
